A study of Mus musculus with 4 samples.

Results

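The genes described here encode potassium, calcium and HCN channel subunits, read in mouse cerebellum after deletion of Dicer, the nuclease that makes mature miRNAs, with a Cre driven by the astroglial mGfap promoter. Members were all non-control spots whose array gene name began with Kcn, Cacna or Cacnb or that named an HCN subunit, without Kcnj10, Kcnj16, Kcne2 and Kcnq1ot1. The array held 163 such probes. Probes were kept where the mutant or the control channel was well above background on all 4 arrays, which left 102 probes for 73 genes, among 18025 genes tested in all, and left out 32 channel genes. Mutants were mGfap-Cre mice with both Dicer alleles floxed, controls were littermates with the same Cre and 1 floxed allele, and all animals were at postnatal day 30 on a mixed background. Both genotypes therefore carried the Cre transgene and at least 1 floxed allele. Whole cerebellum was extracted, so fewer cells of a type and less RNA per cell cannot be told apart in any value below. Each of 4 dual-colour arrays carried the mutant and the control of 1 littermate pair, with the mutant in Cy5 for pairs 1 and 3 and in Cy3 for pairs 2 and 4.

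Potassium channels repolarise neurons and set their resting potential, voltage-gated calcium channels couple depolarisation to transmitter release and to intracellular signals, and HCN channels carry a cation current that opens on hyperpolarisation and helps to set rhythm. Pore-forming subunits make the channel, while auxiliary subunits alter its gating or its delivery to the membrane. In the cerebellum, Purkinje neurons are known for P/Q-type and T-type calcium channels, for fast Kv3-type potassium channels and for calcium-activated potassium channels, all of which shape their spontaneous firing. Mutations of several of these genes cause ataxia.

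Every ratio sets the mutant over its control littermate in log2 units, and a mean ± SD is over the 4 pairs. Genes count as called where limma's Benjamini-Hochberg adjusted p, taken over all 18025 genes, lay below 0.05. The 95% intervals come from the same fit, in which a dye term takes up the difference between the dye orders, and are not adjusted for the number of genes. The SD keeps that difference, so an interval can be narrower than the spread of the pairs. Levels are normalized log2 intensities of a probe and are compared only within that probe. Dicer1 itself stood at 0.26, -0.27, 0.07 and 0.10 in pairs 1 to 4 at its brighter probe (adjusted p = 0.947), and at -0.05, -0.13, -0.25 and 0.18 at its other kept probe. The position of these probes relative to the floxed part was not established, so their ratios are no check of recombination. Of 41174 probes, mutant channels had 26398 to 28907 well above background and control channels 26291 to 27718.

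Most channel genes stood close to equal levels in both genotypes. Of 73 members, 2 rose (Kcne1l and Kcng2) and 1 fell. Over all genes tested, 0.588% were called higher and 0.444% lower, or 1.03% in either direction, against 4.11% of the members. The call of Kcng2 lay at the threshold, and only Kcne1l was called under each of the 18 alternative settings. The median ratio of the members was -0.03, against 0.00 over all genes. The mean ratio was under 0.25 in size for 67 members and under 0.1 for 45, and it reached 0.5 in size only for the 3 called genes. The shares of all genes within these sizes were not counted. Closeness to 0 is therefore not shown to be particular to the channel genes.

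Pairs that all pointed the same way were about as frequent among the members as over all genes. The ratio had the same sign in all 4 pairs for 9 of 73 members (12.3%), while the share over all genes was 15.1%. Of these, 3 were higher (7.75% of all genes) and 6 lower (7.32% of all genes). An unadjusted p under 0.05 was reached by 10 members (13.7%), 3 higher and 7 lower, against 9.39% of all genes. For 65 of 73 members the 95% interval lay within 0.5 of 0 on both sides, and for 28 it lay within 0.25. The shares over all genes were not counted for these limits either. The median SD between pairs was 0.20 for the members and 0.16 over all genes.

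**Figure D1:**
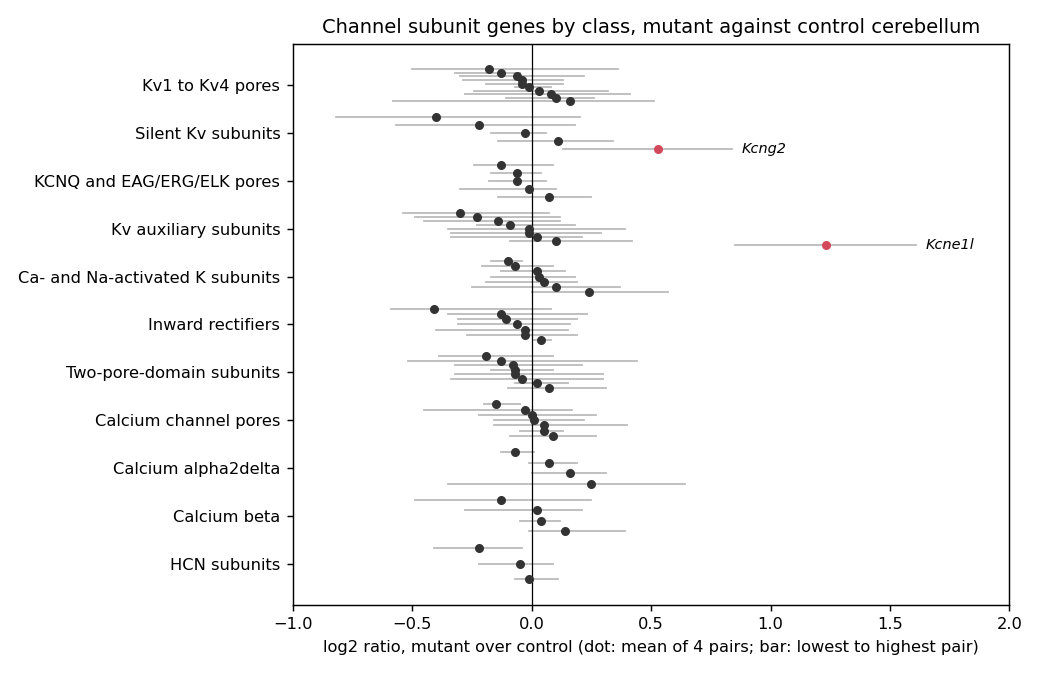
Mean log2 ratio of mutant over control for 69 of the 73 channel genes (dots), grouped by subunit class, with a bar from the lowest to the highest of the 4 pairs. Red dots were called higher; Kcne1l, at 1.23, lies apart from the other genes, whose dots crowd around 0.

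The sequences of the probes behind the clearest difference and behind a gene whose probes disagreed are shown to identify what was measured. Each line gives bases 1 to 30 of a 60-base probe, 5′ to 3′ as the array files give it, with the position of the whole probe in mouse build mm9. Which exon or untranslated region the probes lie in was not established, because no annotation of that build was used here.
Kcne1l, A_51_P160673, chrX:138739364-138739423, minus strand: cccaaatgcatctcttatattggttcagtt
Cacna2d2, A_52_P457888, chr9:107431113-107431172, plus strand: gggggagggtgatacattaattaatggctt
Cacna2d2, A_51_P171711, chr9:107429535-107429678, plus strand: ggtccgcacatctgttttgactacaatgcg

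Kcne1l, also known as Kcne5, encodes a small membrane protein of the KCNE family that associates with voltage-gated potassium channels and alters their current. Its level in pairs 1 to 4 was 12.60, 12.61, 12.70 and 12.42 in mutants and 10.99, 11.36, 11.49 and 11.57 in controls. Every mutant lay above every control, and the lowest mutant and the highest control were those of pair 4. The ratio was 1.61, 1.25, 1.20 and 0.85, a mean of 1.23 ± 0.31 (n = 4), or 2.34-fold (95% interval 0.97 to 1.49 on the log2 scale, adjusted p = 0.013 from limma). The mean ran from 1.13 to 1.33 over the 18 alternatives, with adjusted p between 0.00188 and 0.0433. The gene has 1 probe on the array, so no further probe bears on this value, and in the reference annotation (GRCm38.p6) no other gene overlaps it.

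Kcng2 encodes a silent subunit, which forms no channel alone and combines with other voltage-gated pore subunits. Its level in pairs 1 to 4 was 7.76, 7.56, 7.12 and 7.94 in mutants and 7.37, 6.81, 6.99 and 7.10 in controls. The groups overlapped, because the mutant of pair 3 lay below the control of pair 1, but each mutant lay above its own littermate. The ratio was 0.39, 0.75, 0.13 and 0.84, a mean of 0.53 ± 0.33 (n = 4), or 1.44-fold (95% interval 0.35 to 0.71, adjusted p = 0.0495 from limma). The pairs with the mutant in Cy3 gave the higher ratios, and when the dye term was dropped the gene did not pass (adjusted p = 0.115). Kcng2 was called in 6 of 18 alternatives, and not without replicate 1 (0.46, adjusted p = 0.305 from limma), replicate 3 (0.59, adjusted p = 0.119) or replicate 4 (0.50, adjusted p = 0.0543). The processed signals of the scanner software moved its ratio to 0.81 (adjusted p = 0.055). In the reference annotation 2 other genes overlap it, D330025C20Rik and Gm29913.

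**Figure D2:**
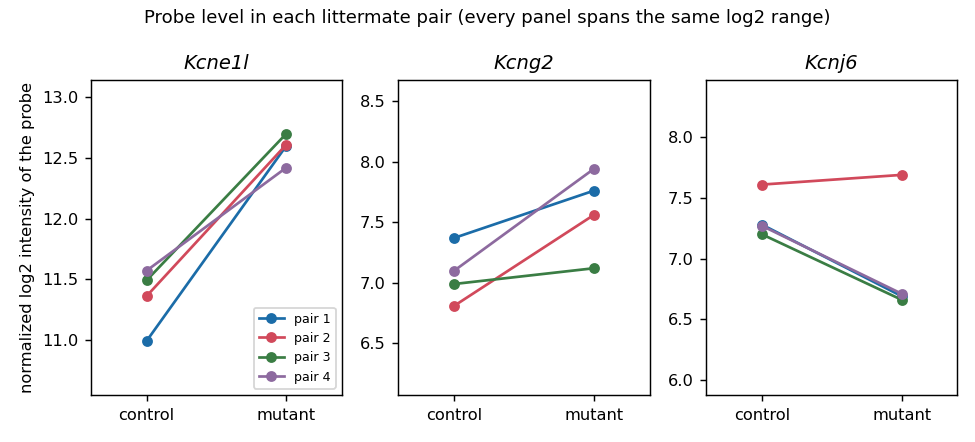
Normalized log2 intensity of the probe in the control and the mutant of each littermate pair (lines, 1 colour a pair) for Kcne1l, Kcng2 and Kcnj6; every panel spans the same range. All 4 lines rise for Kcne1l and Kcng2, while for Kcnj6 the line of pair 2 lies above the rest and is almost level.

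Of 15 genes for Shaker, Shab, Shaw and Shal pores on the array, 12 were tested, with a class median of -0.04, and none of those named here was called. Kcna1 and Kcna2, low-threshold pores of axons and basket cell terminals, stood at -0.06 ± 0.23 and -0.01 ± 0.06. Kcna2 ratios ran only from -0.07 to 0.08 over the pairs, and its interval of -0.16 to 0.14 was among the narrower ones. Kcna4, an inactivating Shaker pore, was below 0 in all 4 pairs at -0.13 ± 0.13 and did not pass (adjusted p = 0.699). Its ratio in pair 1 (-0.32) stood apart from the other 3, which lay between -0.07 and -0.05.

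The Shaw-type pores let Purkinje and granule neurons and interneurons fire fast, narrow spikes. Kcnc1 stood at 0.10 ± 0.16 and Kcnc4 at -0.04 ± 0.13. Kcnc2, typical of fast-spiking interneurons, had the widest spread of the members, with -0.58 in pair 1 and 0.45, 0.51 and 0.28 in pairs 2 to 4. Its mean of 0.16 ± 0.51 therefore carried an interval from -0.28 to 0.61, and its neighbouring probe gave the same pattern (-0.60, 0.37, 0.43 and 0.26). The Shal pores of A-type current, abundant in granule neurons, stood at 0.03 ± 0.29 for Kcnd2 and 0.08 ± 0.29 for Kcnd3. Kcnd2 was positive in pairs 1 and 3 (0.24 and 0.32) and negative in pairs 2 and 4 (-0.21 and -0.24), so the spread at this probe followed the dye order. The other kept probe of Kcnd2 did not, at 0.40, -0.58, -0.27 and 0.12 in pairs 1 to 4. The remaining pores Kcna5 and Kcna6 had means of -0.18 and -0.04.

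Of 9 silent subunit genes, 5 were tested, with a median of -0.03. Besides Kcng2, Kcns3 had the largest mean in size at -0.40 ± 0.43, from -0.53, 0.20, -0.45 and -0.82 in pairs 1 to 4. Only pair 2 lay above 0, and without replicate 2 the gene was called (-0.65, adjusted p = 0.0171 from limma). Without replicate 4 Kcns3 stood at only -0.14 (adjusted p = 0.381), and at -0.28 (adjusted p = 0.825) when flagged spots entered the normexp step. Kcns3 lies outside the rule for named genes and was chosen after its values were seen. Kcng4 stood at -0.22 ± 0.31, Kcnf1 at 0.11 ± 0.20 and Kcns2 at -0.03 ± 0.11, and none of these passed. Kcnf1 was well above background in only 2 of 4 control channels and was kept through the mutant channels.

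No KCNQ or EAG-family pore was called among 6 tested of 13, and the class median was -0.04. Kcnq3, a pore of the M-current that restrains repetitive firing, was not kept, with 1 mutant channel and no control channel well above background. The means of the class ran from -0.13 for the ERG-type Kcnh2 to 0.07 for Kcnh4, which was well above background in 3 of 4 control channels. In Kcnh1, an EAG-type pore, the ratio of pair 2 (-0.30) stood apart from 0.06 to 0.10 in the other 3 pairs.

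Among auxiliary subunits of voltage-gated potassium channels, Kcne1l was the only called gene of 9 tested, and the class median was -0.01. Kcnab2, a cytoplasmic beta subunit of Shaker channels, stood at -0.30 ± 0.26, with -0.54 in pair 2 as the lowest ratio and 0.07 in pair 4 as the only positive one. Its interval of -0.57 to -0.02 excluded 0, but the gene did not pass (adjusted p = 0.491). Kcnab1 stood at -0.01 ± 0.29 and Kcnab3 at -0.09 ± 0.18. Of the calcium-binding KChIP proteins that partner Shal pores, Kcnip1 stood at -0.01 ± 0.31 and Kcnip4 at 0.02 ± 0.26. Kcnip2 and Kcnip3 had means of -0.23 and -0.14 and did not pass, and Kcnip2 was well above background in only 2 of 4 mutant channels. Kcne4, the other KCNE gene that was kept, stood at 0.10 ± 0.22 with an interval of -0.11 to 0.31, which lies below that of Kcne1l. Kcne1 and Kcne3 were not kept.

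Of 12 genes for calcium- and sodium-activated potassium channels 7 were tested and none was called, with a median of 0.03. Kcnma1, the pore of the large-conductance channel that ends calcium spikes in Purkinje neurons, stood at 0.05 ± 0.17, and its neuronal beta subunit Kcnmb4 at 0.02 ± 0.11. Kcnn2, the small-conductance channel of Purkinje neurons that sets the regularity of firing, stood at 0.00, 0.57, 0.11 and 0.27 in pairs 1 to 4. Its mean of 0.24 ± 0.25 had an interval of 0.05 to 0.42 and did not pass (adjusted p = 0.376). A further probe of Kcnn2 gave a mean of 0.11. Kcnn1 stood at -0.07 ± 0.16 and the sodium-activated Kcnt1 at 0.03 ± 0.17. Kcnu1, a testis-type pore, was read by a dim probe that was well above background in 2 of 4 mutant channels. The probe was kept only through the control channels, where it was brighter. Kcnu1 was below 0 in all pairs at -0.10 ± 0.06, as 1 of the 6 members lower in all pairs, and did not pass. Its ratio was -0.35 with the processed signals, and its size is uncertain for that reason.

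Inward rectifiers hold the membrane near rest, and those opened by G proteins mediate slow inhibition. None of 7 tested of 12 was called, and the class median was -0.06. Kcnj6, a G protein-gated subunit, had a level of 6.69, 7.69, 6.66 and 6.71 in the mutants of pairs 1 to 4 and of 7.28, 7.61, 7.20 and 7.27 in their controls. Both animals of pair 2 were brighter than all others, and pair 2 was the only one without a lower mutant. The ratio was -0.59, 0.08, -0.54 and -0.57, a mean of -0.41 ± 0.32 (95% interval -0.69 to -0.12), and it did not pass (adjusted p = 0.307 from limma). Without replicate 2 it did, at -0.57 (adjusted p = 0.0243), and the processed signals of all 4 pairs gave -0.92 (adjusted p = 0.301). The ratio of Kcnj6 was nearer 0 without replicate 4 (-0.25, adjusted p = 0.182) and when flagged spots entered the normexp step (-0.27, adjusted p = 0.752). With a normexp offset of 10 it was -0.60 (adjusted p = 0.272), so its size depended on the background handling. The gene's other probe was well above background in no channel, so only 1 probe bears on Kcnj6. Its partners in heteromeric channels stood near 0, Kcnj3 at -0.03 ± 0.22 and Kcnj9 at 0.04 ± 0.03, and Kcnj9 was positive in all 4 pairs. Kcnj12 stood at -0.06 ± 0.26. The subunits of ATP-sensitive channels, Kcnj8 and Kcnj11, had means of -0.11 and -0.13, each with 1 positive pair.

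The K2P subunits carry leak current that sets the resting potential. Of 11 genes 8 were tested, none was called, and the median was -0.07. Kcnk1 stood at -0.07 ± 0.12 and Kcnk3, a TASK-type leak channel found in cerebellar granule neurons, at -0.04 ± 0.27. Kcnk13 had a mean of -0.19 with 3 negative pairs and did not pass (adjusted p = 0.491). The other means ran from -0.13 for Kcnk12 to 0.07 for Kcnk10.

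Calcium channel pores were at nearly equal levels, with 7 of 10 tested, none called and a median of 0.01. Cacna1a, the P/Q-type pore that carries most Purkinje calcium current and drives transmitter release, stood at -0.05, -0.20, -0.14 and -0.19 in pairs 1 to 4. All 4 pairs were negative, the mean was -0.15 ± 0.07 with an interval of -0.29 to 0.00, and the gene did not pass (adjusted p = 0.532). Its other kept probe gave -0.06 and was positive in 2 pairs. Cacna1g, the T-type pore of Purkinje neurons, stood at 0.05 ± 0.08 (interval -0.10 to 0.19). The N-type Cacna1b stood at 0.01 ± 0.17, and the L-type pores Cacna1c and Cacna1d at -0.03 ± 0.29 and 0.05 ± 0.26. Cacna1e, the R-type pore, was not kept, with at most 2 channels of each genotype well above background.

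The alpha2delta subunits bring calcium channels to the surface, and loss of Cacna2d2 causes ataxia in mice. All 4 of these genes were tested, none was called, and the median was 0.11. Cacna2d2 stood at 0.13, 0.64, 0.57 and -0.35 in pairs 1 to 4, a mean of 0.25 ± 0.46 with an interval of -0.19 to 0.68. Cacna2d1 stood at 0.07 ± 0.09, and the means of Cacna2d3 and Cacna2d4 were -0.07 and 0.16. The intracellular beta subunits, which control gating and surface delivery, were all tested, with none called and a median of 0.03. Cacnb4, whose loss underlies the lethargic mouse, stood at 0.02 ± 0.21, Cacnb2 at 0.04 ± 0.08, Cacnb1 at 0.14 ± 0.17 and Cacnb3 at -0.13 ± 0.31.

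Hcn2, found widely in the brain, was negative in all pairs (-0.28, -0.04, -0.41 and -0.13), a mean of -0.22 ± 0.16 with an interval of -0.37 to -0.06, and did not pass (adjusted p = 0.312). Its mutant and control levels overlapped. Hcn3 stood at -0.05 ± 0.15 and Hcn4 at -0.01 ± 0.08, each with pairs on both sides of 0, and neither was called.

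**Figure D3:**
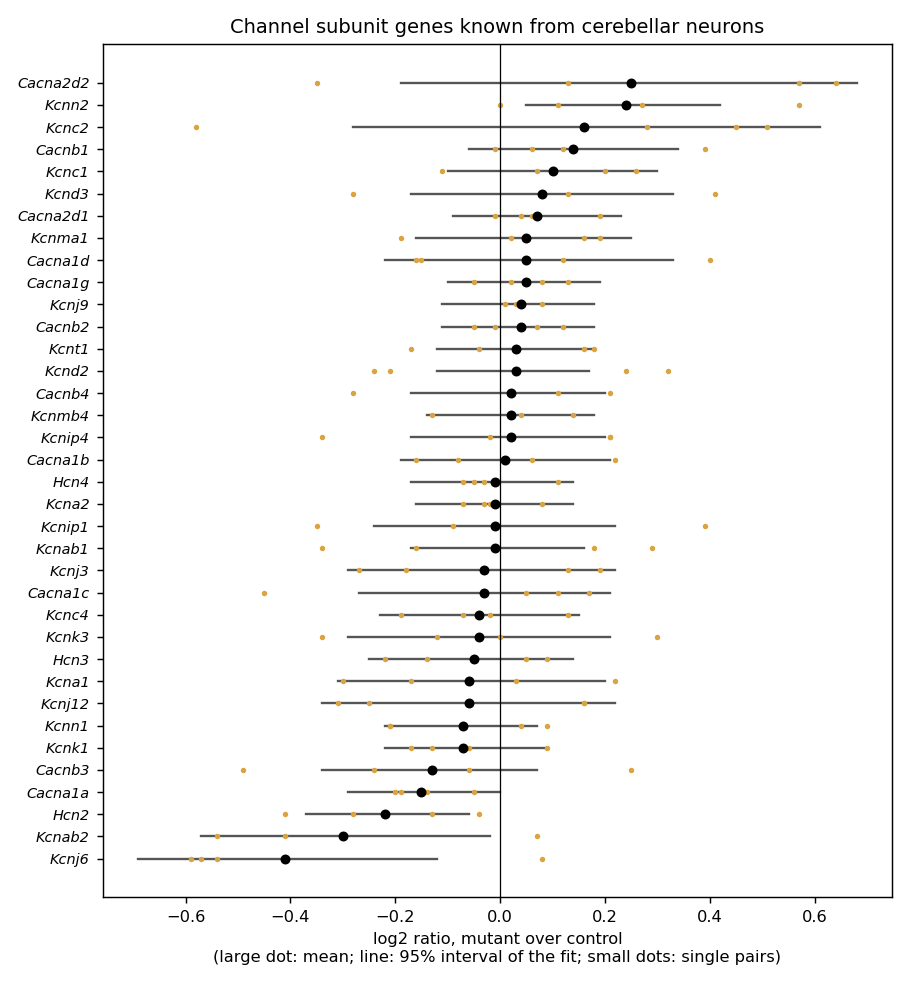
Log2 ratio of mutant over control for 36 channel genes known from cerebellar neurons: mean (large dots), 95% interval of the fit (lines) and single pairs (small dots). None of the genes shown was called, and most intervals lie within 0.5 of 0 on both sides and include it.

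The other 32 channel genes of the array were not kept. For 19 of them no probe was well above background in any channel, among them Kcna3, Kcnd1, Kcnj2 and Kcnn4. The remaining 13 reached at most 3 of 4 arrays in a genotype, with Kcnj14 at 3 in both and Kcnk5 at 1 mutant and 3 control channels. Their ratios were not read as differences.

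Several probes were kept for 23 members, which allowed the ratio to be read at more than 1 place in the gene. For some genes, among them Kcnc1, Cacna1d and Cacnb2, the array assigns these probes to different transcripts. The median absolute difference in mean ratio between the most upstream probe and the probe nearest the 3' end was 0.05 for these genes and 0.06 over 5656 genes with such probes. Single pairs differed more. For Cacna2d2, the probe that stands for the gene gave the values above, while the probe 1578 bases upstream gave 0.02, -0.59, -0.45 and -0.24. The probes disagreed in sign in pairs 2 and 3, and the mean ratio was -0.31 at the upstream one. The gene's 2 further probes gave means of 0.03 and 0.01. For Kcnc1 the upstream probe gave -0.40 and -0.28 in pairs 2 and 3, where the probe near the 3' end gave 0.26 and 0.20. Whether these Kcnc1 probes differ by transcript or by position was not tested. For Cacnb4 the most upstream probe gave -0.35 and -0.22 in those pairs, against 0.02 and 0.21.

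The upstream probe had the lower ratio in 16 of 23 members in pair 2 and in 14 in pair 3, in 9 in pair 1 and in 12 in pair 4. Over all 5656 genes it did so in 3331 in pair 2, 3625 in pair 3, 2649 in pair 1 and 2296 in pair 4, so the share among members in pair 3 was no higher than among all genes. The median difference, upstream minus 3', was -0.12 in pair 2 and -0.07 in pair 3, and 0.01 and -0.02 in pairs 1 and 4. Over all genes it was -0.05, -0.07, 0.01 and 0.05 in pairs 2, 3, 1 and 4. The part of RNA integrity in these differences was not tested.

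**Figure D4:**
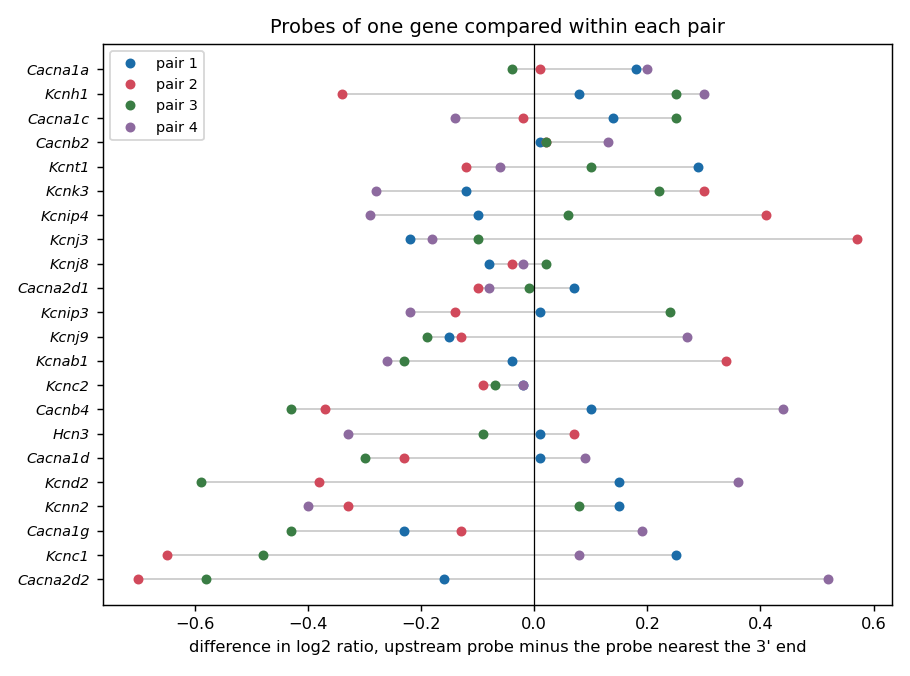
Difference in log2 ratio between the most upstream kept probe and the kept probe nearest the 3' end, for 22 channel genes (rows) and 4 pairs (colours). Points of pairs 2 and 3 lie mostly left of 0, as far as -0.70 for Cacna2d2 in pair 2.

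Proteins that bind, traffic or modulate these channels, with relatives of such proteins, were read from a list of 45 genes, of which 40 were tested. None rose, 1 fell, and the median was -0.03. The called gene was Lgi4, a secreted LGI-family protein, at -1.18, -1.63, -0.86 and -1.10 in pairs 1 to 4 (mean -1.19 ± 0.32, adjusted p = 0.0171 from limma). It did not pass without replicate 1 (-1.11, adjusted p = 0.0593). A link of Lgi4 itself to these channels was not established here. Lgi1, of the same family, stood at 0.20 ± 0.16 and did not pass (adjusted p = 0.378). Amigo1, a membrane adhesion protein that binds potassium channels, stood at -0.05 ± 0.30. Pex5l, which binds HCN subunits and controls their surface level, was negative in all pairs (-0.39, -0.01, -0.70 and -0.07). Its mean was -0.29 ± 0.32 and did not pass (adjusted p = 0.241), and the lower ratios were those with the mutant in Cy5. Cacng4 was also negative in all pairs, at -0.26 ± 0.12 (adjusted p = 0.172). Of the 40 partners, 5 were lower in all 4 pairs (7.32% of all genes) and 1 higher (7.75% of all genes). Dpp6 and Dpp10, partners of Shal channels, stood at -0.04 ± 0.12 and 0.03 ± 0.08.

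Genes of calcium release, extrusion and buffering downstream of calcium entry were read from 34 tested of 35 listed. None was called in either direction, and the median was -0.01. Itpr1, the calcium release channel of Purkinje neurons, stood at 0.14 ± 0.29. Itpr2, the release channel typical of astroglia, was positive in all pairs (0.51, 0.81, 0.41 and 0.45) at 0.54 ± 0.18 and did not pass (adjusted p = 0.0632 from limma). Itpr2 was named after its values were seen, and it was called in 5 of 18 alternatives. These were leaving out replicate 4 (0.63, adjusted p = 0.018), dropping the dye term (adjusted p = 0.0268), dropping the pairing (adjusted p = 0.0378), a variance trend with robust fitting (adjusted p = 0.0492) and retaining dim probes (adjusted p = 0.0487). Among the settings that missed the threshold, leaving out replicate 1 gave 0.52 (adjusted p = 0.328), leaving out replicate 3 gave 0.57 (adjusted p = 0.215) and the processed signals gave 0.55 (adjusted p = 0.108), and the mean over its kept probes was 0.38 (adjusted p = 0.0807).

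Marker lists of the cells that carry these channels give the setting. None of 18 tested Purkinje markers was called, with a median of -0.02, and the sum of their linear intensities ran, over animals, from 482000 to 567000 in mutants and from 438000 to 567000 in controls. Lists of 17 granule neuron and 12 interneuron markers held no called gene and had medians of 0.01 and 0.00. Of 26 astroglia markers 3 rose and 8 fell (median -0.31), with a summed level of 394000 to 487000 in mutants and 458000 to 487000 in controls. Oligodendrocyte markers had a median of -0.23 over 20 genes with none called, and 19 lay below 0 and 1 above. Of the 20, 6 were lower in the mutant of all 4 pairs (7.32% of all genes) and none was higher in all. An unadjusted limma p under 0.05 was reached by 8 oligodendrocyte markers (9.39% of all genes, in either direction). Choroid plexus markers, with none of 18 called, had medians of 0.11, -0.51, 0.39 and 0.48 in pairs 1 to 4. Markers of meninges and fibroblasts, with none of 13 called, had a median of 0.13, and 10 of them lay above 0. Of these, 5 were higher in the mutant of all 4 pairs (7.75% of all genes), among them Dcn at 0.52 ± 0.30 and Lum at 0.56 ± 0.36. An unadjusted p under 0.05 was reached by 4 markers (9.39% of all genes, in either direction). The other 3 markers lay just below 0, Col1a2 at -0.03 ± 0.67, Slc47a1 at -0.03 ± 0.29 and Foxc1 at -0.02 ± 0.14. The part of cell makeup in the values of Kcne1l and Kcng2 was not tested.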

How the data were processed

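RNA of 4 mutant and 4 control cerebella was read on 4 dual-colour Agilent arrays, 1 littermate pair an array, from 500 ng of total RNA a channel, per the labels. The deposited files hold linear spot and background intensity values of both dyes from Feature Extraction 10.5.1.1, and processed intensities that the software background-subtracted, detrended and dye-normalized, per the file headers. The deposited log10 ratios come from those processed intensities. The authors' value table holds the same log10 ratios turned to mutant over control, with a largest difference of 4.84e-06.

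Mean intensities were recomputed with limma 3.58.1 in R 4.3.3. Background was corrected with normexp (offset 50), fitted without spots that carried an outlier flag (143 to 248 of 45018 an array), and ratios were normalized by loess within arrays. Flagged spots were set missing and spots of a probe averaged. The brightest kept probe stood for a gene, and a value on at least 3 arrays in both dye orders was required. A genotype term and a dye term were fitted, with 2 residual and 3.37 prior degrees of freedom. Levels came from the same ratios after quantile normalization of the average intensities between arrays. The arrays were on 1 slide. Their number limits the precision, and no spot was saturated. Symbols were updated through transcript accessions for 24844 of 41174 probes; every member kept its name.

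By rule, named members were those called, up to 10 in each direction with the same sign in all pairs, and the kept genes of a list of 43 known from cerebellar neurons. Values of further members were given in the account of each class. These lie outside the rule, and the choice among them was not fixed by it. From the partner and calcium handling lists the rule named only called genes, so the uncalled genes given from them lie outside it too. The members and lists were chosen with earlier results of these data known. The values of 4 members are not reported here; the counts and medians include them.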

Additional observations from a re-analysis of the deposited data

Results flagged for a closer look

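In 3 of 73 channel genes 1 pair stood apart from the other 3 by Dixon's test, which marks about 1 in 20 groups by chance. For Kcnj6 it was pair 2, at 0.08 against -0.59 to -0.54. For Kcna4 it was pair 1, at -0.32 against -0.07 to -0.05, and for Kcnh1 pair 2, at -0.30 against 0.06 to 0.10.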

How the results depend on the processing

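Of 18 alternatives, the number of channel genes called higher was 1 in place of 2, with Kcng2 lost, without background subtraction, with the outlier flags applied after the normexp fit, with the processed signals, with the value table, with median centring, with scale normalization between arrays, with both genotypes required above background, with no dye term and with no replicate block. It ran from 1 to 2 when a replicate was left out. The number called lower was 0 in place of 1 with the flags after the fit, with median centring and with no replicate block, and ran from 0 to 3 when a replicate was left out, with 0 without replicate 1 and without replicate 3. Without replicate 2 the count was 3, and Kcnj6 and Kcns3 were among them. Because both animals of a pair shared an array, the ratio is the paired value and the fit with no replicate block treats the channels as unpaired. The median of the members ran from -0.04 to -0.01. The calcium handling count called higher was 1 in place of 0 with no filter on dim probes, with no dye term, with an intensity trend and robust variances and with no replicate block, and ran from 0 to 1 when a replicate was left out. The channel partners called lower ran from 0 to 1 when a replicate was left out. The counts over all genes were 106 higher and 80 lower, and 50 and 32 with the flags after the fit, 88 and 53 with the processed signals, and 73 and 66 with median centring. They were 41 and 11 on leaving out replicate 1, 139 and 127 for replicate 2, 63 and 32 for replicate 3, and 216 and 121 for replicate 4. Fewer pairs entered when a replicate was left out, and the cause of these differences was not tested for any setting. Signal over background limits the 5 members that were not well above background on every array of both genotypes.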
